A study of Saccharomyces cerevisiae with 58 samples.

Results

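Transcripts of 10 genes of trehalose and glycogen metabolism were followed over time in 2 strains of budding yeast (Saccharomyces cerevisiae). The 10 genes are TPS1, TPS2, TPS3, TSL1, NTH1, GSY1, GSY2, GLC3, GPH1 and PGM2, chosen by name from the array's gene table, and all 10 were among the 5449 genes measured. Each was read by 1 probe set, so no choice between probe sets was needed. The rule that names them is the pathway and uses no measured value, but they were chosen with earlier results of these data known.

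The study compared transcription through the cell cycle in wild-type cells and in cells that lack B-type cyclins, the proteins that direct the cyclin-dependent kinase through DNA replication and mitosis. The wild type was BF264-15DU, mating type MATa, with bar1. The mutant had the same background and mating type, with clb1 disrupted by URA3, clb2 by LEU2, clb3 by TRP1, clb4 by HIS2, clb5 by ARG4 and clb6 by APE1. It also carried GAL1-CLB1:LEU2, a copy of CLB1 under a promoter that galactose turns on and dextrose represses, and its label does not list bar1. Elutriation, a separation by cell size, gave small G1 cells of both strains, which then grew at 30 °C in YEPDextrose with 1 M sorbitol. Each strain had 2 cultures, stated to be biological replicates, and each array was 1 time point of 1 culture, with 28 arrays for the wild type and 30 for the mutant. Sampling ran from 30 to 254 min for wild-type culture 1 and for mutant culture 2. For the other pair of cultures it ran from 38 to 262 min. Arrays were 16 min apart, with 1 time missing in each wild-type culture. The cultures have no untreated counterpart, so each strain served as the reference for the other.

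Trehalose is a disaccharide that protects proteins and membranes, and glycogen is a branched glucose polymer. Yeast lays down both as glucose runs low, growth slows or stress sets in, and draws on them when growth resumes. Both are built from UDP-glucose, which is made from glucose 1-phosphate, the product of the phosphoglucomutase Pgm2. Trehalose-6-phosphate synthase (Tps1) and trehalose-6-phosphate phosphatase (Tps2) make trehalose in a complex with the regulatory subunits Tps3 and Tsl1, and the neutral trehalase Nth1 splits it. Glycogen synthases (Gsy1 and Gsy2) and the branching enzyme Glc3 make glycogen, and glycogen phosphorylase (Gph1) breaks it down.

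Values are the deposited intensities of probe sets on the scale log2(intensity + 1), on which a difference of 1 is a doubling. Mean intensity per array lay between 2067 and 2121. The background level, taken as the 95th percentile of 1746 probe sets for genes outside the S. cerevisiae annotation, was 9.06, and 4856 of the 5449 genes lay above it on average. Among the disrupted genes, CLB2, CLB3 and CLB4 were below background on all 30 mutant arrays, whereas CLB1, CLB5 and CLB6 were above it on all 30. Where in those genes the probes lie was not analysed here, so signal from a disrupted gene does not test its label. The mutant also carries the GAL1-CLB1 copy. Its CLB1 values ran from 11.11 to 11.98, against 7.93 to 12.06 in the wild type. The source of this CLB1 signal was not tested. Of the 5 a-specific genes, which mark the labelled mating type, 0 were below background on every array of a strain. Their summed intensity ran from 30549 to 58276 in the wild type and from 8082 to 59780 in the mutant. Summed intensity of 4 alpha-specific genes ran from 2002 to 5075 and from 2511 to 4045, and that of 10 genes of meiosis and sporulation from 4372 to 6114 and from 4349 to 7659. In that last list, 4 genes were below background on every wild-type array and 5 on every mutant array.

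8 of the 10 genes lay above background on average. TPS1, TPS2, TPS3, NTH1, GSY2 and PGM2 did so on all 28 wild-type and all 30 mutant arrays, and TSL1 on 28 and 29. GLC3 was above it on 14 wild-type and 24 mutant arrays, GPH1 on 4 and 11, and GSY1 on 1 and 11. For GSY1, GPH1 and GLC3 the wild-type values after the first hour are therefore near the floor of the array, where this scale understates fold changes. GSY1 and GPH1 were below background in both strains on all arrays used from 62 to 142 min and from 150 to 198 min. Their changes into or out of those times are fitted values and no measure of size.

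Transcripts of 9 of the 10 genes were high in the first sample of each wild-type culture and fell steeply within about an hour. In the last hour the mutant cultures stood above the wild-type cultures, which had stayed well below their first values. The time at which the mutant levels turned upward differed between genes and between the mutant cultures. TSL1, the regulatory subunit gene with the largest range, stood at 14.35 at 30 min and 13.03 at 46 min in wild-type culture 1, and at 9.10 by 78 min, a fall of 38.2-fold. In wild-type culture 2 it went from 14.11 at 38 min to 9.32 at 86 min, a fall of 27.7-fold. In mutant culture 1 it went from 12.69 at 38 min to 9.05 at 86 min, and in mutant culture 2 from 14.14 at 30 min to 9.40 at 62 min. All 4 cultures thus came close to the background level of 9.06 between 62 and 86 min. For the 9 genes other than GSY1, the lowest value of each culture fell between 62 and 126 min.

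**Figure D1:**
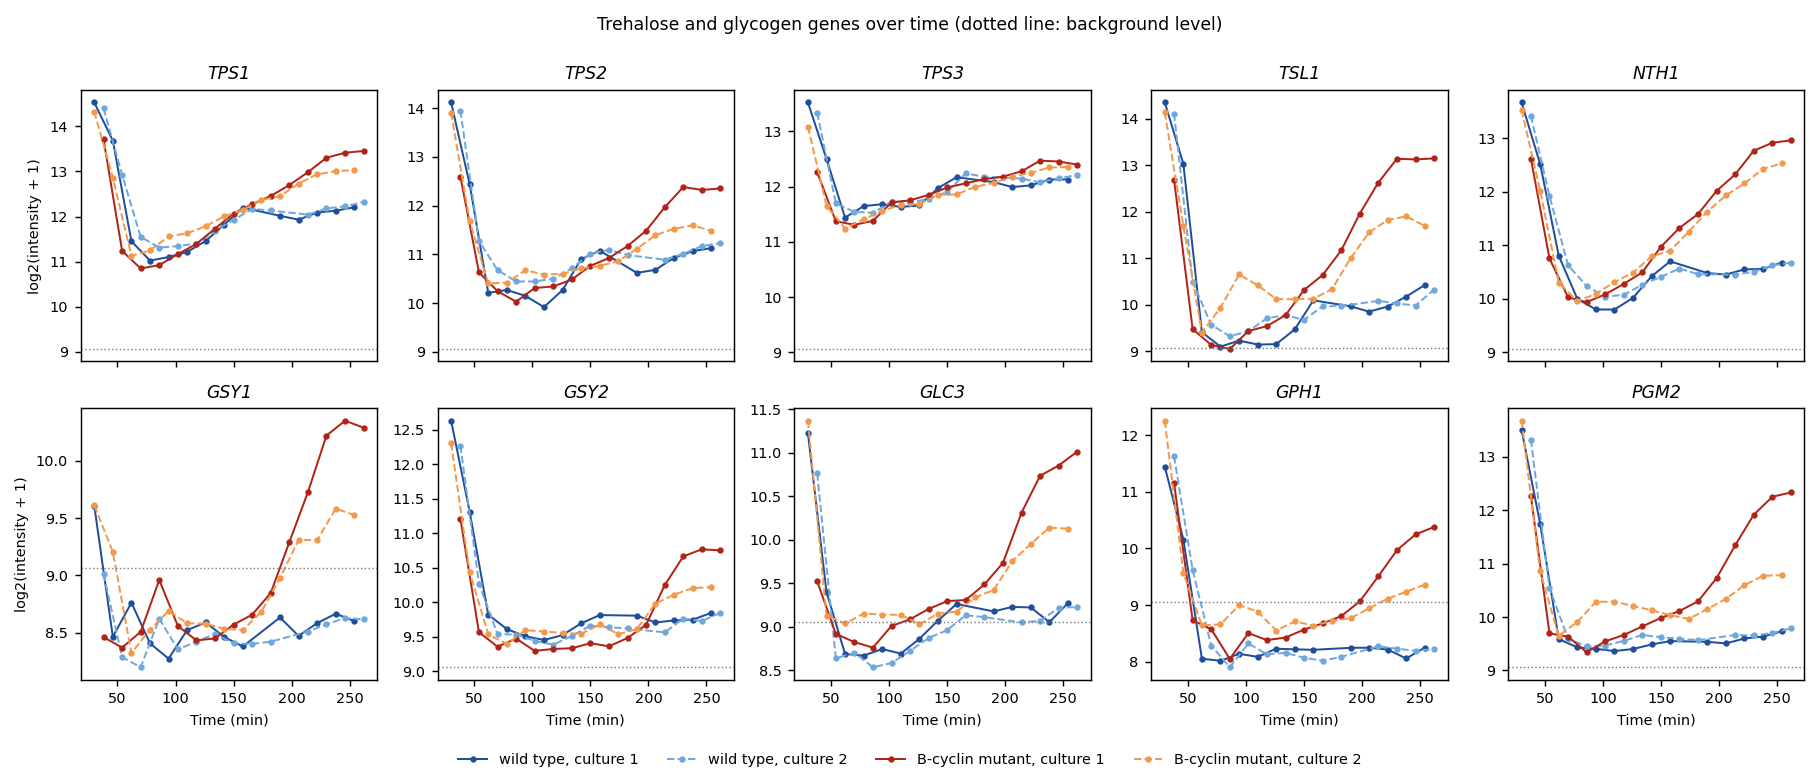
Level of each gene, as log2(intensity + 1), against time in min, with 1 point per array and 1 line per culture. The dotted line is the background level of 9.06. From 214 min on each mutant culture lies above the wild-type culture sampled at the same times in all 10 panels, least so for TPS3, and mutant culture 1 ends above mutant culture 2.

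For the tests, times were divided into 4 windows, 30 to 54 min, 62 to 142 min, 150 to 198 min and 206 to 262 min. Each culture was averaged over the times that both strains shared, which used 56 of the 58 arrays, and limma was run on the 4 culture means (n = 2 cultures per strain). Each SE came from the fit of all 4 cultures, so the change of a gene had the same SE in both strains. A gene counted as called where its p, adjusted over all 5449 genes by Benjamini-Hochberg, was under 0.05. In these bulk samples, fewer cells with a transcript and less transcript per cell cannot be told apart.

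From the first window to the second, 9 of the 10 genes fell in the wild type, where 23.0% of all genes were called lower and 21.1% higher. The log2 change was -3.59 ± 0.47 (SE) for TSL1 (adjusted p = 0.00703), -2.78 ± 0.27 for PGM2 (0.00401), -2.69 ± 0.26 for NTH1 (0.00388) and -2.57 ± 0.17 for GPH1 (0.00184). It was -2.52 for TPS2, -2.48 for TPS1, -2.08 for GSY2, -1.27 for GLC3 and -1.10 for TPS3. GSY1 changed by -0.38 ± 0.26 (adjusted p = 0.282), from a first-window level that was above background on 1 of 4 arrays. Without wild-type culture 1 the count was 6, without TPS3 (-0.86), GLC3 (-1.02) and GSY2 (-1.79, adjusted p = 0.0512). Without wild-type culture 2 it was 7, without TPS3 (-1.34) and GLC3 (-1.52), and without either mutant culture it was 10. In the mutant 7 of the 10 fell, where 13.8% of all genes were called lower and 12.0% higher. The change was -2.26 for TSL1, -1.99 for NTH1, -1.86 for GPH1, -1.78 for both PGM2 and TPS2, -1.65 for TPS1 and -1.43 for GSY2. The changes of GLC3 (-0.69 ± 0.25, adjusted p = 0.104), TPS3 (-0.51 ± 0.19, adjusted p = 0.114) and GSY1 (-0.35 ± 0.26, adjusted p = 0.352) did not pass. Without mutant culture 2 the mutant count was 3, and without mutant culture 1 it was 10, with changes of -1.14 for GLC3, -0.80 for TPS3 and -0.87 for GSY1. The limma test of the difference between strains called 0 of the 10, and 0% of all genes, with 2 of the 10 at an unadjusted p under 0.05. The wild-type change was the more negative for all 10, by 0.03 to 1.34.

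The first window held 2 arrays per culture, and the cultures of a strain differed widely in it. For TPS1 the window mean was 14.11 and 13.66 in wild-type cultures 1 and 2, and 12.47 and 13.60 in mutant cultures 1 and 2. For TSL1 it was 13.69 and 12.30, and 11.08 and 12.92. Mutant culture 1 was thus the lowest of the 4 for both genes, as it was for the other 8. The mean of the mutant was below that of the wild type for 9 of the 10 genes, with a median difference of -0.66 over the 10 against -0.01 over all genes. None of the 10 was called by limma, with adjusted p from 0.710 to 0.968 and 1 of 10 at an unadjusted p under 0.05, where 0.0734% of all genes were called higher and 0.0367% lower.

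In the second window the strains lay close together. Differences of the 8 genes above background ran from -0.10 for GSY2 to 0.34 for PGM2 and TSL1, and 0 of 10 were called by limma, with 2 at an unadjusted p under 0.05, where 0.440% of all genes were called higher and 0.954% lower. Between the mutant cultures the window means were furthest apart for TSL1 (9.38 and 10.11) and PGM2 (9.60 and 10.08). TSL1 in mutant culture 2 rose from 9.40 at 62 min to 10.65 at 94 min and was back at 10.12 by 126 min, whereas in mutant culture 1 it went from 9.13 at 70 min through 9.43 at 102 min to 9.77 at 134 min. PGM2 in mutant culture 2 reached 10.29 at 94 and 110 min, against 9.54 at 102 min in culture 1. This passing rise was thus seen in a single culture.

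From the second window to the third, 6 of the 10 genes rose in the wild type, where 10.7% of all genes were called higher and 12.1% lower. TPS1 rose by 0.69 ± 0.09 (SE, adjusted p = 0.0108), TPS2 by 0.52, TPS3 by 0.45, GLC3 by 0.41, NTH1 by 0.34 and GSY2 by 0.18. PGM2 changed by 0.07 and TSL1 by 0.54 ± 0.22 (adjusted p = 0.131), and neither was called. Without wild-type culture 1 the count was 1 and without wild-type culture 2 it was 0. In the mutant 7 of the 10 rose, where 26.8% of all genes were called higher and 26.4% lower. NTH1 rose by 1.03 ± 0.07 (adjusted p = 0.00108), TPS1 by 0.90, TSL1 by 0.89, TPS2 by 0.52, TPS3 by 0.43, GLC3 by 0.29. The 7th call was GSY1, which was below background in both windows, and its call was lost with any 1 of the 4 cultures left out. GLC3 in the mutant started from 9.04, just under background, with 6 of 11 arrays above it. In the wild type GLC3 started from 8.74, with 1 of 11 arrays above it. The mutant rises of NTH1, TPS1, TSL1, TPS2 and TPS3 thus started from means above background. Without mutant culture 1 the mutant count was 4, and the rise of TSL1 was 0.46 (adjusted p = 0.086) and that of GLC3 0.19 (adjusted p = 0.086).

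The strains differed in this step for 1 gene of the 10, where 12.1% of all genes were called higher in the mutant and 8.31% lower. NTH1, which encodes the trehalase, rose by 0.69 ± 0.11 more in the mutant (adjusted p = 0.0186). That call was lost without wild-type culture 2 (0.58, adjusted p = 0.074) and without mutant culture 1 (0.60, adjusted p = 0.051). The count was 2 under quantile normalization, with equal array medians and without mutant culture 2.

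From the third window to the fourth the wild-type changes ran from -0.01 for TPS3 to 0.15 for TSL1. None of the 10 genes was called by limma, and 0 had an unadjusted p under 0.05, where 0.0918% of all genes were called higher and 0.110% lower. In the mutant all 10 rose, where 20.6% of all genes were called higher and 25.7% lower. The rise was 1.74 ± 0.25 for TSL1 (adjusted p = 0.00522), 1.22 ± 0.11 for NTH1 (0.00305), 1.18 ± 0.28 for PGM2 (0.0214) and 1.07 ± 0.17 for GSY1 (0.00693). GLC3 rose by 1.03, TPS2 by 0.93, GPH1 by 0.90, GSY2 by 0.84, TPS1 by 0.83 and TPS3 by 0.33. The rise was smaller in mutant culture 2, whose own values were 0.53 for PGM2, 0.46 for GPH1, 0.48 for GSY2, 0.56 for TPS2 and 0.68 for GSY1. Without that culture the rise of PGM2 was 1.83, and with either wild-type culture left out it was not called (adjusted p = 0.0544).

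The difference between strains in this step was called for 6 of the 10 genes, where 10.4% of all genes were called higher in the mutant and 9.89% lower. It was 1.59 ± 0.35 for TSL1 (adjusted p = 0.0363), 1.20 ± 0.15 for NTH1 (0.0201), 1.01 ± 0.21 for GLC3 (0.0335), 0.94 ± 0.24 for GSY1 (0.04996), 0.78 ± 0.14 for TPS1 (0.0253) and 0.34 ± 0.06 for TPS3 (0.0264). PGM2 (1.09 ± 0.40, adjusted p = 0.107), TPS2 (0.86 ± 0.23, 0.0564), GPH1 (0.83 ± 0.28, 0.0906) and GSY2 (0.82 ± 0.23, 0.0579) were not called. Without either wild-type culture the calls among the 10 were lost. Without wild-type culture 1 the calls over all genes were lost too, and the difference was 1.51 for TSL1 and 1.14 for NTH1. Without mutant culture 2 the difference was 1.74 for PGM2. Without mutant culture 1 the difference was 1.03 for TSL1 and 0.56 for GSY1, and that of TPS3 was 0.33 (adjusted p = 0.051). GSY1 was not called with the mean over probe sets (0.94, adjusted p = 0.051), nor with the replicate number as a block (adjusted p = 0.059), which called TPS2 in its place (0.86, adjusted p = 0.0492).

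**Figure D2:**
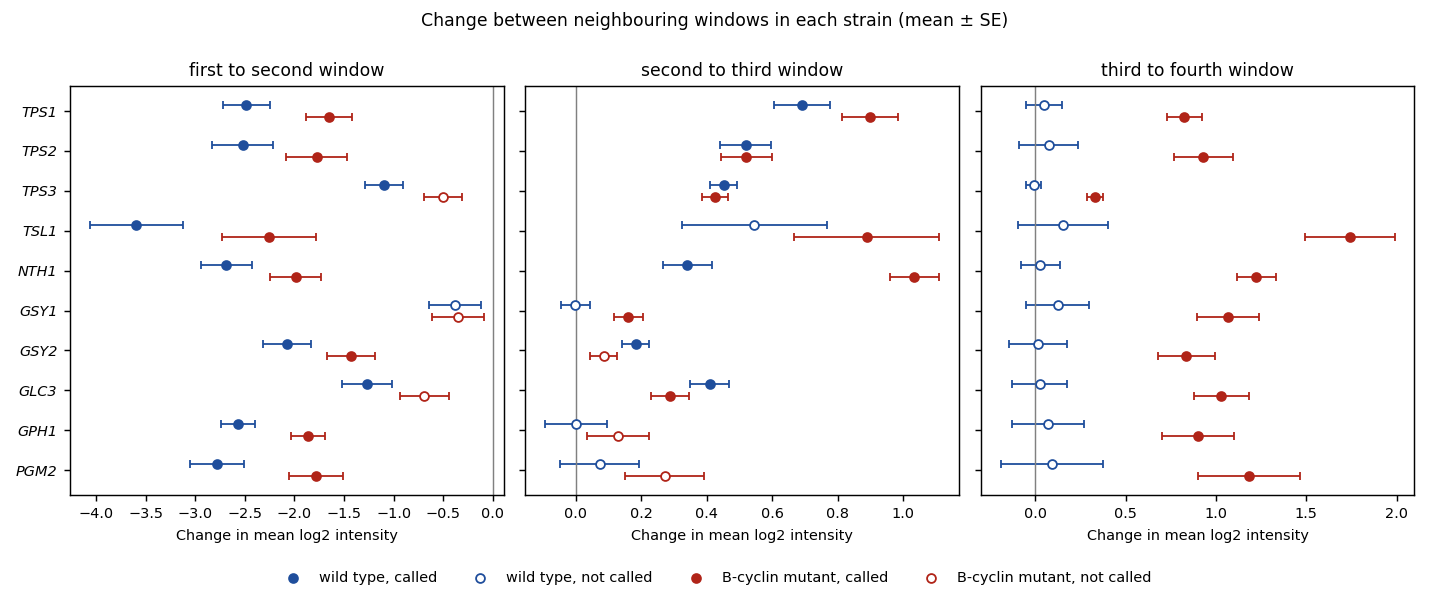
Change in mean log2(intensity + 1) between neighbouring windows, as mean ± SE over 2 cultures, in the wild type (blue) and the B-cyclin mutant (red), with a filled point where the change was called. The fall of the first step is seen in both strains, and in the last step the 10 mutant points lie between 0.33 and 1.74 while the wild-type points lie between -0.01 and 0.15.

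In the fourth window 9 of the 10 genes were higher in the mutant, where 18.3% of all genes were called higher and 14.6% lower. The median difference over the 10 was 1.20, against 0.01 over all genes tested. With array medians set equal the median of all genes moved by 0.14, and the calls over all genes were 1037 higher and 310 lower in place of 999 and 795. The median of the 10 then was 1.34, and 9 were called.

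Among the genes of trehalose synthesis, TSL1 had the largest difference. Its values at the 4 times of this window were 9.85, 9.96, 10.17 and 10.42 in wild-type culture 1 and 10.08, 10.02, 9.98 and 10.32 in wild-type culture 2. They were 12.63, 13.14, 13.13 and 13.15 in mutant culture 1 and 11.56, 11.82, 11.90 and 11.69 in mutant culture 2. All 8 mutant values lay above all 8 wild-type values, and culture 1 lay above culture 2 in the mutant. The difference was 2.27 ± 0.38 (SE, adjusted p = 0.00918), or 4.84-fold.

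TPS1, the synthase gene, had window means of 12.09 and 12.19 in the wild-type cultures and of 13.29 and 12.93 in the mutant cultures. The difference was 0.97 ± 0.14 (adjusted p = 0.00612), or 1.96-fold. TPS2, the phosphatase gene, had means of 10.95 and 11.08 and of 12.25 and 11.50, a difference of 0.86 ± 0.24 (adjusted p = 0.0404). Without mutant culture 1 the TPS2 difference was 0.49. TPS3, the other regulatory subunit gene, was the exception among the 10. Its means were 12.07 and 12.14 in the wild type and 12.40 and 12.28 in the mutant, and the difference of 0.23 ± 0.10 was not called (adjusted p = 0.112). The cultures of the strains did not overlap for TPS3, but the difference was small.

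NTH1, the gene of trehalose breakdown, went the same way as the genes of synthesis. Wild-type culture 1 had values of 10.45, 10.55, 10.56 and 10.68, and wild-type culture 2 of 10.45, 10.51, 10.62 and 10.67. Mutant culture 1 had 12.32, 12.77, 12.92 and 12.96, and mutant culture 2 had 11.93, 12.15, 12.43 and 12.53. The wild-type cultures were nearly level and alike, and the lowest mutant value was above the highest wild-type value. The difference was 1.94 ± 0.17 (adjusted p = 0.00131), or 3.84-fold.

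The genes of glycogen synthesis were all higher in the mutant. GLC3, the branching enzyme gene, had window means of 9.20 and 9.14 in the wild type, with 6 of 8 arrays above background, and of 10.73 and 9.996 in the mutant, a difference of 1.19 ± 0.23 (adjusted p = 0.0142). GSY2, the main glycogen synthase gene, had means of 9.76 and 9.73 and of 10.61 and 10.13, a difference of 0.63 ± 0.17 (adjusted p = 0.0350) that was 0.39 without mutant culture 1. GSY1, its paralog, lay below background on all 8 wild-type arrays of the window and above it on all 8 mutant arrays. Its measured means were 8.58 and 8.58 in the wild type and 10.15 and 9.43 in the mutant, with a fitted difference of 1.21 (adjusted p = 0.0127). Because the wild type gives only a bound, GSY1 was at least 1.66-fold higher in the mutant, computed against the background level.

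GPH1, the gene of glycogen breakdown, was likewise below background on all 8 wild-type arrays, with means of 8.19 and 8.23. On the mutant side 7 of 8 arrays were above background, with means of 10.03 and 9.16, which makes it at least 1.45-fold higher (fitted difference 1.38, adjusted p = 0.0139). PGM2, the phosphoglucomutase gene that feeds both pathways, had values of 9.51, 9.60, 9.64 and 9.73 in wild-type culture 1 and of 9.66, 9.66, 9.70 and 9.79 in wild-type culture 2. It had 11.35, 11.92, 12.25 and 12.34 in mutant culture 1 and 10.34, 10.60, 10.78 and 10.78 in mutant culture 2. The mutant cultures were further apart for PGM2 than for any other of the 10 genes (SD 0.95), yet each lay above both wild-type cultures. The difference was 1.63 ± 0.40 (adjusted p = 0.0283), and 0.96 without mutant culture 1.

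Calls in this window rested on both wild-type cultures. Without wild-type culture 1, 3 of the 10 genes passed (TPS1, TSL1 and NTH1), and without wild-type culture 2, 4 passed (the same 3 and GPH1). The differences themselves moved little in those fits, for example from 1.63 to 1.59 and 1.68 for PGM2. The ratio of 3′ to 5′ signal over 7 control genes, a sign of RNA integrity or labelling, had a median (log2) of 0.88 over the 8 wild-type arrays of this window and of 1.20 over the 8 mutant arrays. By culture the ratio ran from 1.26 to 1.49 in mutant culture 1 and from 0.93 to 1.13 in mutant culture 2. The wild-type arrays of this window ran from 0.81 to 0.95. The medians had been 0.98 and 1.37 in the third window, with 5 and 7 arrays. Over the course the ratio was highest in wild-type culture 1, at 30 min (1.92) and 62 min (1.73). The part of this ratio in the early fall and in the differences between strains was not tested.

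**Figure D3:**
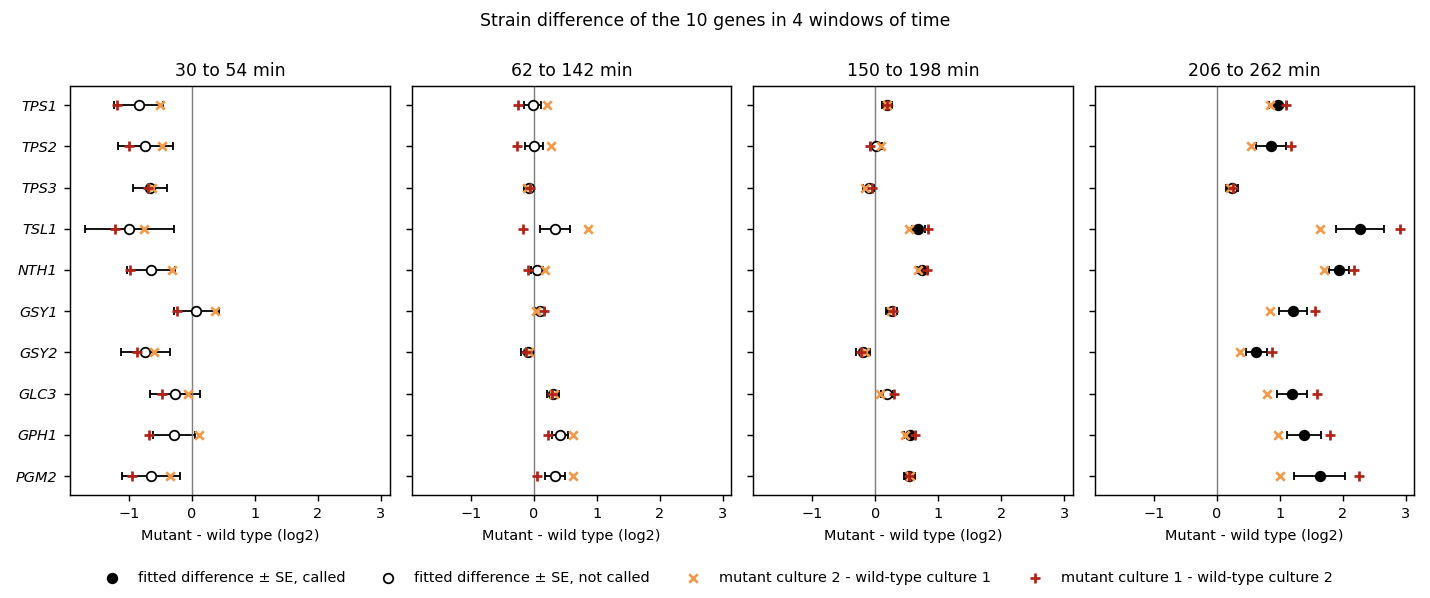
Difference between mutant and wild type in mean log2(intensity + 1) for each gene in the 4 windows of time. Circles with bars are the fitted difference ± SE (filled where called), crosses and plus signs the difference between the cultures sampled at the same times. In the fourth window 9 of 10 circles are filled, from 0.63 for GSY2 to 2.27 for TSL1, and the plus signs of mutant culture 1 lie to the right of the crosses of mutant culture 2 for all 10 genes.

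The order in which the genes parted between strains was read from cultures sampled at the same times, with no test and with a limit of 1 (log2) that was chosen after the values were seen. TSL1 and NTH1 were more than 1 higher in the mutant from 190 min to the end on the earlier grid of times and from 182 min on the later grid. PGM2 followed from 222 and 214 min, and GPH1 from 238 and 214 min. TPS2, GSY1 and GLC3 passed that limit from 214 min and TPS1 from 230 min on the later grid, and none of these 4 passed it for good on the earlier grid. GSY2 passed it at 246 min on the later grid without holding it to the end, and TPS3 passed it on neither grid. The wild type has no array at 174 min on the earlier grid or 198 min on the later one. Onsets read at 190 and 214 min may therefore lie earlier. PGM2 in mutant culture 1 was already 10.73 at 198 min, against 9.57 at 182 min and 9.66 at 214 min in wild-type culture 2. TSL1 had also passed the limit for a time on the earlier grid, at 94 and 110 min (1.42 and 1.28). At the last time the difference was 2.82 for TSL1, 2.55 for PGM2 and 2.29 for NTH1 on the later grid, against 1.27, 1.05 and 1.85 on the earlier one.

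The third window showed the beginning of this order. There 4 of the 10 genes were called higher in the mutant, where 13.0% of all genes were called higher and 8.63% lower. With array medians set equal the median of all genes moved by 0.17, the calls over all genes were 1344 higher and 260 lower in place of 711 and 470, and 6 of the 10 were called, with TPS1 and GSY1 added. NTH1 differed by 0.74 ± 0.09 (adjusted p = 0.00422), TSL1 by 0.69 ± 0.10 (0.00813) and PGM2 by 0.54 ± 0.08 (0.00884). The call of PGM2 was lost without wild-type culture 1 (0.52, adjusted p = 0.0596). The 4th call was GPH1 (adjusted p = 0.0122), below background on all 5 wild-type and all 5 mutant arrays used, so no size is given for it, and its call was lost without wild-type culture 2 (adjusted p = 0.0846). The differences of the other 5 genes above background ran from -0.19 for GSY2 to 0.19 for TPS1.

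Averaged over the whole course, 6 of the 10 genes were higher in the mutant, where 5.69% of all genes were called higher and 5.07% lower (310 and 276 genes, and 506 and 173 with array medians equal). The difference was 0.79 ± 0.08 for TSL1 (adjusted p = 0.00174), 0.63 ± 0.08 for GPH1, 0.62 ± 0.08 for NTH1, 0.62 ± 0.08 for PGM2, 0.46 ± 0.09 for GLC3 and 0.44 ± 0.08 for GSY1. GPH1 and GSY1 were below background on most arrays of each strain, so their values here are fitted and no measure of size. TPS1, TPS2, TPS3 and GSY2 differed by 0.19, 0.15, -0.08 and 0.00 and were not called. Without wild-type culture 2 the calls of GLC3 (0.39, adjusted p = 0.0962) and GSY1 (0.39, adjusted p = 0.101) were lost. Without the arrays before 62 min 7 were called, with TPS1 added at 0.36. GSY1 was not called with the sampling grid as a block (0.44, adjusted p = 0.0520). When all arrays were fitted with the culture as a random block, 0 of the 10 were called. Differences were 0.44 to 0.80 for the same 6, with adjusted p from 0.0541 to 0.261. Over all genes that fit called 734 higher and 625 lower.

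The part of the early fall that was regained is given per culture. For the 9 genes other than GSY1, the rise from the lowest value to the last array was 6.82% to 33.8% of the fall (log2) in wild-type culture 1 and 8.60% to 37.5% in wild-type culture 2. In mutant culture 2, sampled at the times of wild-type culture 1, it was 21.9% to 72.1%, with a median of 47.0%. In mutant culture 1, sampled at the times of wild-type culture 2, it was 75.1% to 296%, with a median of 102%. The low end of each range was GPH1, and the 296% was GLC3. In every culture the lowest values of both genes lay below background, so their shares are no measure of size. With these genes left out, the ranges began at 8.89% and 8.73% in wild-type cultures 1 and 2, both for PGM2. They ran from 76.1% (GSY2) to 115% (TPS3) in mutant culture 1 and began at 28.2% (PGM2) in mutant culture 2. TSL1 in mutant culture 1 also fell just below background, to 9.05. NTH1 regained 22.7% and 18.8% in the wild-type cultures, 113% in mutant culture 1 and 72.1% in mutant culture 2. The high shares of mutant culture 1 go with its lower first samples, for example 9.52 for GLC3 at 38 min against 10.76 in wild-type culture 2. No test was made of these shares.

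The shape over time differed between strains for all 10 genes in a test of the strain by time interaction with splines over all 58 arrays, where 73.7% of all genes were called. F ran from 7.52 for GPH1 (adjusted p = 1.16e-05) to 69.4 for NTH1 (adjusted p = 3.13e-19). A share of 10 of 10 is to be read against that background of most genes. Arrays of a culture form a series in time, so these p-values and those of the next test may be too small.

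A periodic pattern was tested with a cosine and a sine beside a straight line in time, at the period that served G1/S genes of each strain best, 102 min (wild type) and 136 min (mutant). In the wild type 6 of the 10 genes were called, where 11.1% of all genes were called. These were TPS1, TPS2, NTH1, GSY2, GPH1 and PGM2, with fitted peaks from 34.7 to 41.1 min. In the mutant 0 of 10 were called, where 7.62% of all genes were called, with 0 at an unadjusted p under 0.05 and adjusted p of 0.217 or more. The wild-type calls rested on the first arrays. Without those before 62 min, 0 of the 10 were called, and the fitted peak-to-trough was 0.47 for NTH1, 0.43 for TPS2 and 0.30 for TPS1, each under 1.5-fold. Adjusted p of the F-test was then 0.00273 for TPS2, 0.00334 for GSY2, 0.00896 for NTH1 and 0.01997 for PGM2. These genes thus missed only the limit of 1.5-fold. For TPS1 and GPH1 the adjusted p was 0.0638 and 0.441. In the mutant 2 were called without the early arrays, TSL1 (0.88, adjusted p = 0.0326) and GSY1 (0.71, adjusted p = 0.000492). With either wild-type culture left out, the wild-type calls among the 10 were lost, as were most of the wild-type calls over all genes.

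A small second movement in the wild type is visible in the single values. TPS2 in wild-type culture 1 went from 9.92 at 110 min to 11.08 at 158 min, back to 10.62 at 190 min and up to 11.13 at 254 min. In wild-type culture 2 it went from 10.44 at 102 min to 11.09 at 166 min, 10.89 at 214 min and 11.23 at 262 min. NTH1 in wild-type culture 1 likewise went from 9.80 at 110 min to 10.70 at 158 min and 10.45 at 206 min. The dip in between was smaller in culture 2, at 10.56 and 10.45.

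The 10 genes moved alike. Over the 58 arrays, with each gene centred and scaled within its culture, Pearson's r of the 45 pairs ran from 0.63 to 0.98 with a median of 0.91. Over the 50 arrays from 62 min on it ran from 0.39 to 0.96 with a median of 0.83. The arrays share cultures and the steep early fall, so r is a description only. The genes outside the 10 whose profile was most like the mean profile of the 10 over the 58 arrays were AIM17 (r = 0.99), SDS24, RCN2, YKL091C and BXI1 (each 0.98), and ATH1, PPZ2, HER1, ISN1 and RNY1 (each 0.97). ATH1 encodes the acid trehalase and RCN2 a regulator of the phosphatase calcineurin. From 62 min on, r of these 10 lay between 0.71 for HER1 and 0.95 for AIM17. In the fourth window AIM17 was 1.503 higher in the mutant, SDS24 1.21, RCN2 1.09 and BXI1 0.46.

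Of 24 other genes of the same metabolism, 18 lay above background on average. In the fourth window 9 of the 24 were higher in the mutant and 3 were lower, where 18.3% of all genes were called higher and 14.6% lower. The median difference of the 24 was 0.14. Of the 10 genes above, 9 were higher and 0 lower. HXK1, which encodes a hexokinase, was 2.44 ± 0.29 higher (adjusted p = 0.00330) and GLK1, the glucokinase gene, 0.99 ± 0.14 (0.00532). GDB1, the glycogen debranching enzyme gene, was 1.51 ± 0.14 higher (0.00174), and ATH1 1.03 ± 0.16 (0.00717). PIG2 and PIG1, which encode putative targeting subunits of the Glc7 phosphatase, differed by 0.78 ± 0.10 (0.00404) and -0.73 ± 0.11 (0.00663). The other 4 that were higher were UGP1, SGA1, PCL8 and PGM1, at 0.37 to 0.72. The other 2 that were lower were PCL10 and PCL6, which encode cyclins of the Pho85 kinase, at -0.44 and -0.40. The genes from UGP1 to PCL6 in these last sentences, and NTH2 and HXK2 below, were named after their values were seen.

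**Figure D4:**
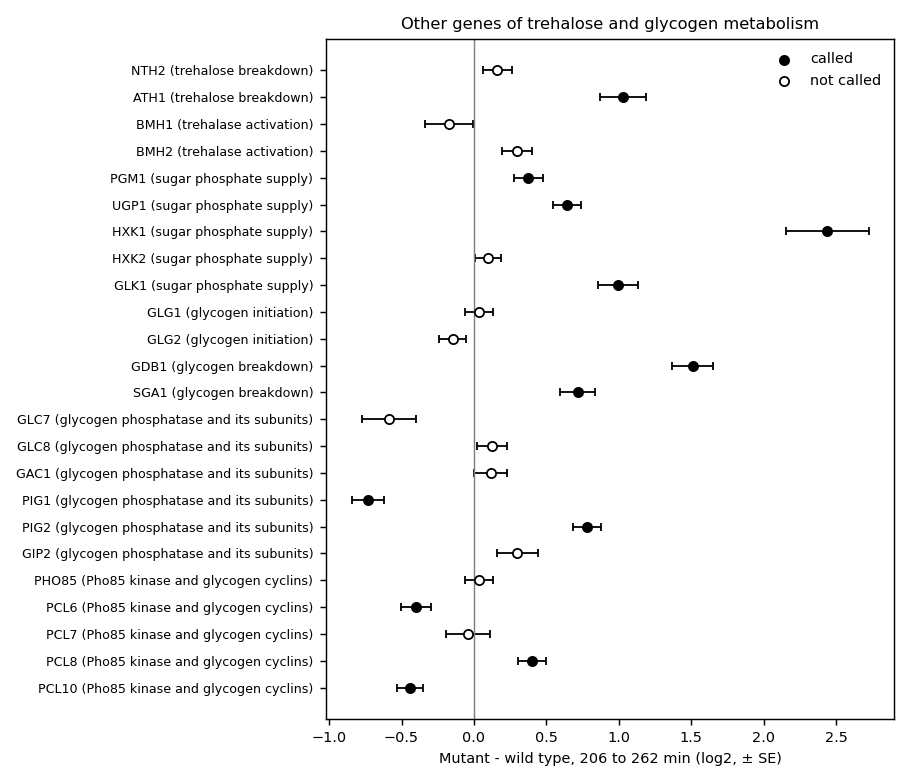
Difference between mutant and wild type in mean log2(intensity + 1) at 206 to 262 min for 24 other genes of trehalose and glycogen metabolism, with SE from the fit of 4 cultures and a filled point where called. 9 filled points lie to the right of 0, led by HXK1 at 2.44 and GDB1 at 1.51, and 3 to the left, led by PIG1 at -0.73.

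These genes fell and rose in part with the 10. From the first window to the second 13 of the 24 fell and 2 rose in the wild type, against 23.0% and 21.1% of all genes. In the mutant 6 fell and 2 rose, against 13.8% and 12.0%, and the test of the difference between strains called 0 of the 24. The wild-type change was -2.87 for GLK1, -2.62 for GDB1, -2.14 for ATH1 and -2.12 for HXK1. The 2 that rose were PGM1 (1.08 in wild-type and 1.71 in mutant cultures) and HXK2 (0.62 and 0.76), which encode the minor phosphoglucomutase and the hexokinase of growth on glucose. From the second window to the third 5 rose and 1 fell in the wild type, against 10.7% and 12.1% of all genes. In the mutant 13 rose and 3 fell, against 26.8% and 26.4%. From the third to the fourth window 0 of the 24 were called in the wild type by limma, against 0.0918% of all genes higher and 0.110% lower. In the mutant 10 rose and 3 fell, against 20.6% and 25.7%, with HXK1 at 1.81, GLK1 at 1.23 and GDB1 at 0.72. The test of the difference between strains in that step called 6 of the 24, all higher in the mutant. Of all genes it called 10.4% higher and 9.89% lower.

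Paralogs within the pathway had unlike values side by side, and the difference between paralogs was not tested. From the first window to the second PGM2 changed by -2.78 and PGM1 by 1.08 in the wild type. In the fourth window PGM2 was 1.63 higher in the mutant and PGM1 0.37. NTH1 was 1.94 higher and NTH2, the second neutral trehalase gene, 0.16 ± 0.10 (adjusted p = 0.262). HXK1 was 2.44 higher and HXK2 0.10 ± 0.09 (adjusted p = 0.433). TSL1 was 2.27 higher and TPS3 0.23.

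Of 18 regulators of the pathway measured, which include kinases, phosphatase subunits and transcription factors, 3 were higher in the mutant in the fourth window and 1 was lower, with a median difference of 0.25. With 18.3% and 14.6% of all genes called, these counts are no larger than the background. YAK1, a kinase gene active when growth slows, was 0.58 ± 0.14 higher, RIM15, the kinase gene that acts on entry into stationary phase, 0.36 ± 0.10, and TPK2, which encodes a catalytic subunit of protein kinase A, 0.35 ± 0.10. TPK3, another such subunit gene, was 0.32 lower (-0.32 ± 0.10). MSN2 and MSN4, which encode the activators of the general stress response and were named after their values were seen, differed by -0.24 ± 0.11 (adjusted p = 0.132) and 0.28 ± 0.11 (0.110). Transcript level says nothing of the activity of these proteins.

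Other groups of genes also moved over the course. Of all genes, 18.3% were called higher in the mutant in the fourth window and 14.6% lower. From the first window to the second, 21.1% rose and 23.0% fell in the wild type, and 12.0% and 13.8% in the mutant. From the third window to the fourth, 20.6% rose and 25.7% fell in the mutant, and 0.0918% and 0.110% in the wild type. Of 16 genes of the general stress response, 13 were higher in the mutant in the fourth window, with a median of 1.56, led by HSP12 (2.71), HSP42 (2.69) and SOL4 (2.49). All 16 rose in the mutant from the third window to the fourth, with a median of 1.14, and 0 in the wild type. From the first window to the second all 16 fell in each strain, with a median of -3.03 for wild-type and -2.20 for mutant cultures. Of 6 genes induced by osmotic stress, 3 were higher in the fourth window, led by STL1 (1.21), GPP2 (0.65) and GRE2 (0.56). Of 10 genes of ribosome biogenesis, which mark growth, all 10 rose from the first window to the second in wild-type cultures and 1 was called in mutant cultures. The changes of all 10 were positive in the mutant too, and the test of the difference between strains called 0 of 10. Of the same list 6 were lower in the fourth window, with a median of -0.40, and all 10 fell in the mutant from the third window to the fourth. The a-specific genes were also lower in the mutant in the fourth window, 5 of 5, with a median of -2.09. Of the 4 alpha-specific genes 1 was higher and 1 lower, and of the 10 genes of meiosis and sporulation 3 were higher and 1 lower. Whether any of these groups has a part in the values of the 10 genes was not tested.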

How the data were processed

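RNA from 58 samples was measured on Affymetrix yeast arrays. The authors deposited linear intensities of 10928 probe sets, made with affy 1.8.1 per the submitters' processing notes. Background correction, summary and scaling are not given in the sources used here. Probe sets were named through the platform's gene table and the Entrez number of the RefSeq annotation: 5498 were named to 5449 genes, 3683 had no gene name and 1 had several symbols. For 47 genes with several probe sets the brightest was used. The analysis took log2(intensity + 1) and used R 4.3.3 with limma 3.58.1. Culture means, and their differences between windows, were fitted with lmFit and eBayes, periodicity and interaction (splines, 8 degrees of freedom) over arrays. Periodic genes needed an adjusted p under 0.05 and 1.5-fold, at a period sought from 60 to 160 min. The number of arrays limits the precision, and the steps were tested on simulated data. All 10 genes are named in every comparison, other listed genes where past the threshold (at most 6 per comparison), up to 3 examples from other lists, and the 10 genes of most alike profile. The members and lists were chosen with earlier results of these data known. 4 listed genes are not analysed here. No sequence or coordinate was used here.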

Additional observations from a re-analysis of the deposited data

Results flagged for a closer look

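Changes between neighbouring windows differed between the strains, by the limma test of the difference itself, for 7 values among the 10 genes. From the second window to the third, NTH1 rose by 0.69 more in the mutant. From the third window to the fourth, the mutant rise exceeded that of the wild type by 1.59 for TSL1, 1.20 for NTH1, 1.01 for GLC3, 0.94 for GSY1, 0.78 for TPS1 and 0.34 for TPS3. The test of the shape over time (strain by time interaction) was passed by all 10 genes, as by 73.7% of all genes measured. Each window change rested on 2 cultures per strain, and these calls of the last step were lost when either wild-type culture was left out. Without wild-type culture 1 the calls of that test over all genes were lost too.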

How the results depend on the processing

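Counts of called genes among the 10 were within 1.5 times the reported count in 113 of 136 recomputations, and 0 called values changed sign. With all arrays and the culture as a random block, 0 of the 10 genes differed over the whole course (reported 6). Over all genes that fit called 734 higher and 625 lower (reported 310 and 276). With a culture left out, where a lone culture is assumed to vary like the other strain's, counts ran from 3 to 10 for the fourth window, 3 to 10 for the first fall of the mutant, 0 to 7 and 4 to 7 for the second step in the wild type and the mutant, 0 to 2 and 0 to 10 for the strain difference of the second and the last step, and 0 for wild-type periodicity. The strain difference of the second step was called for 2 genes under quantile normalization and with array medians equal. Wild-type periodicity was called for 3 genes with array medians equal and for 0 without the arrays before 62 min, with a period 10 min shorter and with squared time. Without the early arrays TPS2, GSY2, NTH1 and PGM2 kept an adjusted p under 0.05 and missed only the limit of 1.5-fold. Mutant periodicity was called for 2 without early arrays and 2 with squared time. Except where fewer samples entered the fit, the cause was not tested. Replicate numbers did not pair the cultures (r of deviations -0.06). With the replicate block the counts were 6 over the whole course, 4 and 9 in the third window and in the fourth window, and 1 and 6 for the strain difference of the last 2 steps, and it ended the call of GSY1 in the last step. Counts over all genes moved more. Those called higher in the fourth window ran from 233 to 1806 with a culture left out (reported 999) and those lower from 183 to 1403 (795). With array medians equal, 615 rose and 1608 fell in the first wild-type step (reported 1148 and 1254), 1557 and 635 in the second mutant step (1462 and 1436), 715 and 1819 in the last mutant step (1122 and 1398), and 472 and 883 in the first mutant step (652 and 752). The strain difference was then called higher and lower for 777 and 227 genes in the second step (659 and 453) and 410 and 664 in the last (564 and 539).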
